A study of Mus musculus with 16 samples.

Results

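Cdh1, Cdh2, Epcam, Cldn4, Cldn7, Vim, Zeb1, Zeb2, Snai1 and Snai2 are epithelial junction genes and genes of the epithelial-mesenchymal transition (EMT). They were taken by symbol, each matching a single Ensembl gene, and make up 10 of the 55536 genes in the count table. RNA-seq counts were analysed for 16 mouse libraries from bone marrow, cells labelled MSC (an abbreviation the labels do not spell out) and tumors. The tumors were of MC38, an established line labelled as colon adenocarcinoma cells, and their labels give a size of at most 1000 mm3. Each tissue came from mice labelled KLF WT (WT) and from mice labelled KLF K74R (K74R), which the sample titles call KO. There were 3 WT and 3 K74R libraries of bone marrow, 2 and 2 of MSC, and 3 and 3 of tumor. The labels do not say which KLF gene is meant, so the altered gene was not checked here, and no strain, age, sex or further treatment is given in the sources used here. The design text gives the genotype to the mouse, whereas MC38 is a line of its own, so RNA of tumor cells and of host cells cannot be told apart in a tumor library. Nothing states that libraries of a group came from separate animals, so p-values measure the spread between these libraries, which may be technical. In bulk RNA, fewer cells of a type and less RNA per cell cannot be told apart.

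Epithelial cells hold to each other through adherens junctions, built on E-cadherin, and through tight junctions, built on claudins. In EMT, a program known from embryos, wound repair and carcinomas, cells lose these contacts, often exchange E-cadherin for N-cadherin and gain a vimentin cytoskeleton. The SNAI and ZEB families are zinc-finger repressors that bind E-box sequences in promoters of junction genes, Cdh1 above all. Mesenchymal, endothelial and blood cells use the same repressors outside EMT.

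The promoters of the junction genes are shown because the SNAI and ZEB proteins are known to bind the E-box letters CACCTG, which read CAGGTG on the other strand. Both spellings were searched, and matches are in capitals. The windows come from RefSeq (GRCm38.p6) and run from 250 bases before to 50 bases after an annotated start site, 5′ to 3′ on the gene's strand. The table held 6 of the 10 genes, and Cdh1 and Snai2 were not among them. Epcam encodes an epithelial adhesion glycoprotein, Cldn4 and Cldn7 encode claudins, Vim encodes vimentin, and Snai1 encodes a repressor of the family itself. The windows are chr17:87635729-87636028 (plus strand) for Epcam, chr5:134946885-134947184 (minus strand) for Cldn4, chr11:69965171-69965470 (plus strand) for the second start of Cldn7, chr2:13574061-13574360 (plus strand) for Vim and chr2:167537945-167538244 (plus strand) for Snai1.
Epcam: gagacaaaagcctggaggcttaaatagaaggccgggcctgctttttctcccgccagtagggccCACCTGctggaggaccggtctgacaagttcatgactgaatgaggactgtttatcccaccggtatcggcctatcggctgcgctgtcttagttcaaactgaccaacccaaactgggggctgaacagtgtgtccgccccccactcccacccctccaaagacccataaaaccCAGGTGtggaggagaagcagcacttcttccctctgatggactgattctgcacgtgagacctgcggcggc
Cldn4: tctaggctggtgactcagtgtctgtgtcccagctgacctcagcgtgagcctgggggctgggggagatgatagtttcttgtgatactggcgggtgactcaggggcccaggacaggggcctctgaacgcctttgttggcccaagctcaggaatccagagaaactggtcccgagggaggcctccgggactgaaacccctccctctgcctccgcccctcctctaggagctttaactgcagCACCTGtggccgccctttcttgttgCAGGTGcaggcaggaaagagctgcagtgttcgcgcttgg
Cldn7: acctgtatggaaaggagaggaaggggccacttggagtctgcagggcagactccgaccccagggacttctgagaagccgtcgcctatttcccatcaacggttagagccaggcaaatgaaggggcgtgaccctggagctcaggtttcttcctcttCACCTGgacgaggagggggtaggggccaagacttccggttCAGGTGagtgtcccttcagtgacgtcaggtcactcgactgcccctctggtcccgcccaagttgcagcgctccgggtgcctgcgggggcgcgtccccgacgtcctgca
Vim: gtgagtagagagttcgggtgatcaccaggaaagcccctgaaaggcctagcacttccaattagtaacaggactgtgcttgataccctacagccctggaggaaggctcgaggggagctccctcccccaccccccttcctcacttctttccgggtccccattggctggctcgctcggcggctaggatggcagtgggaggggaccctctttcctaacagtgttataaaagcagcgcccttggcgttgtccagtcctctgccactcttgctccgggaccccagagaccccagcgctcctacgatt
Snai1: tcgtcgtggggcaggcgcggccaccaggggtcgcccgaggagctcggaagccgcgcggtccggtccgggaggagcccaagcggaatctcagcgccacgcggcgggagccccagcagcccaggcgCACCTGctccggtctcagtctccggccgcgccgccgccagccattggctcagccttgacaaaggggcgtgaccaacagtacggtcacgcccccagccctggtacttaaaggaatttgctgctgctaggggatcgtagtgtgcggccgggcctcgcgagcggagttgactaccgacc

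The Epcam window holds the motif 2 times, with its first base 187 and 19 bases before the start site. In Cldn4 the 2 matches lie on either side of the start, 14 bases before it and at base 12 after it. The second start of Cldn7 has 2 matches, 97 and 57 bases before it, and the first start, chr11:69964529-69964828, has 0. Snai1 has 1 match, 126 bases before its start, and neither the Vim window nor any of the 4 Zeb2 windows holds these letters. Of all 32817 RefSeq windows of 300 bases, 6634 (20.2%) hold the motif, so a match is common and describes only the sequence.

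In the GENCODE M21 annotation of GRCm38 the genes lie at chromosome 8:106603351-106670246 (Cdh1, ENSMUSG00000000303), 18:16588877-16809246 (Cdh2, ENSMUSG00000024304), 17:87635979-87651129 (Epcam, ENSMUSG00000045394), 5:134945119-134946934 (Cldn4, ENSMUSG00000047501) and 11:69964779-69967885 (Cldn7, ENSMUSG00000018569). Vim (ENSMUSG00000026728) lies at 2:13573927-13582826, Zeb1 (ENSMUSG00000024238) at 18:5591860-5775467 and Zeb2 (ENSMUSG00000026872) at 2:44983632-45117395. Snai1 (ENSMUSG00000042821) lies at 2:167538195-167542814 and Snai2 (ENSMUSG00000022676) at 16:14705852-14709385. Counts are per gene over its exons. Genes on the opposite strand share 1.93% of the exon bases of Zeb1 (Gm10125) and 3.27% of those of Zeb2 (Zeb2os). Gm10125 had 0 to 38 counts per library and Zeb2os 23 to 69, and without the strand setting reads in the shared bases cannot be told apart.

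Libraries held 14067259 to 18923751 counts. Levels are given as CPM, counts scaled to library size with TMM factors, where 3 counts correspond to 0.148 to 0.23 CPM depending on the library. The tissue labels were checked against marker genes. Of 15 markers of simple and intestinal epithelium, 14 were under 1 CPM on average in the tumors of either genotype, with Cdx2, Fabp1, Phgr1 and Tff3 at 0 in all 6 tumors and the list summing to 2.97 to 5.94 CPM. The stromal list summed to 4872 to 10580 CPM in MSC and 430 to 1150 in bone marrow. MSC libraries also carried macrophage and leukocyte markers, which summed to 20250 and 16890 CPM in the WT libraries and 7203 and 11390 in the K74R libraries, against 6081 to 6592 in bone marrow. Endothelial markers summed to 350.6 and 1914 CPM in WT MSC and 23.3 and 34.2 in K74R MSC. The MSC genotypes thus differ in the markers of other cell types, and these values stand beside every MSC result below.

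The tumors, although labelled as adenocarcinoma cells, carried little RNA of Cdh1, Epcam, Cldn4 and Cldn7 and much RNA of vimentin and Snai1. Per kilobase of exon (RPKM, the mean over the libraries of a tissue), the order in tumors was Vim at 373 ± 14.6 (SD, n = 6), Snai1 at 51.4 ± 10.7, Zeb2 at 10.7 ± 2.0, Snai2 at 4.58 ± 1.62, Zeb1 at 2.93 ± 0.66, Cdh2 at 2.33 ± 0.23, Cdh1 at 1.04 ± 0.31 and Epcam at 0.178 ± 0.088. Cldn7 (0.0345) and Cldn4 (0.00511) were last. Neighbours in an order are called overlapping where their mean ± SD overlap. In tumors this held for Snai2 and Zeb1, for Zeb1 and Cdh2 (each in order in 5 of 6 libraries), and for Cldn7 and Cldn4. In MSC, Vim (890 ± 489, n = 4) was followed by Snai2 (51.3 ± 16.1), Zeb2 (30.5 ± 11.2), Snai1 (21.9 ± 14.4), Cdh2 (11.4 ± 2.0) and Zeb1 (8.91 ± 2.45), with the 4 junction genes at 0.0365 RPKM or less. There Snai2 overlapped Zeb2, Zeb2 overlapped Snai1, Snai1 overlapped Cdh2 and Cdh2 overlapped Zeb1, as did the junction genes among themselves, so Vim alone stood apart at the top. Snai2 was nevertheless above Zeb2 within each of the 4 libraries. In bone marrow, Vim (109 ± 15.9, n = 6) was followed by Zeb2 (10.7 ± 1.4), Zeb1 (4.89 ± 0.47), Cdh1 (2.44 ± 0.32), Snai2 (2.29 ± 0.95), Cdh2 (1.1 ± 0.42), Snai1 (0.504 ± 0.501) and Epcam (0.194 ± 0.13). There Vim, Zeb2, Zeb1 and Cdh1 were in this order in all 6 libraries, whereas all neighbours from Cdh1 down overlapped. After Vim, the highest mean was that of Snai1 in tumors and Zeb2 in bone marrow, both clear of the next gene, and that of Snai2 in MSC, which overlapped Zeb2.

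**Figure D1:**
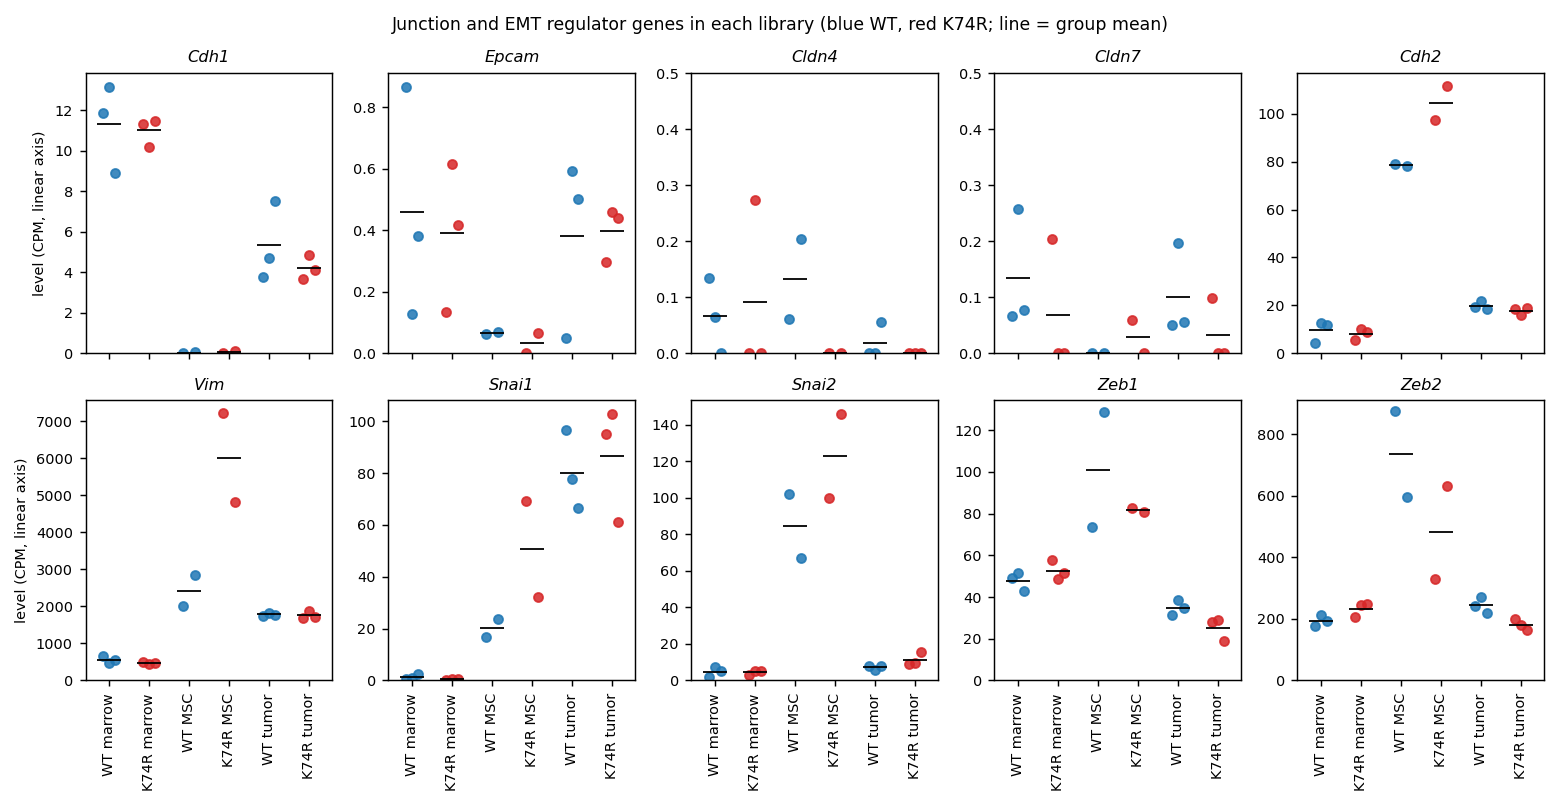
Level of each gene (CPM, linear axes that differ between panels) in every library; blue points are WT, red points K74R, and the black line is the group mean. Cdh1 is highest in bone marrow and near 0 in MSC, Cdh2 and Snai2 are highest in MSC, Snai1 is highest in tumors, and Cldn4 and Cldn7 stay under 0.3 CPM everywhere.

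Tissues were compared in a model of all 16 libraries with edgeR's quasi-likelihood test, averaging the genotypes. A gene was called at a Benjamini-Hochberg adjusted p under 0.05 and at least a 2-fold difference. The test covered 8 of the genes, since Cldn4 and Cldn7 did not pass the filter on low counts. Tumors against bone marrow gave 3 higher (Snai1, Vim, Cdh2) and 1 lower (Cdh1), where 25.3% of all 18191 genes tested were called higher and 28.3% lower. Against MSC, tumors gave 3 higher (Cdh1, Epcam, Snai1) and 5 lower (Cdh2, Vim, Zeb1, Zeb2, Snai2), where the background was 22.5% higher and 22.2% lower. MSC against bone marrow gave 5 higher (Cdh2, Vim, Zeb2, Snai1, Snai2) and 2 lower (Cdh1, Epcam), beside 24.7% and 26.8% of all genes. The libraries of the 2 tissues did not overlap for 5, 6 and 8 of the 8 genes in these comparisons, which was so for 67.4%, 55.4% and 59.8% of all genes tested. The median log2 fold change of the 8 genes was 0.48, -1.30 and 2.19, against 0.02, 0.06 and -0.07 for all genes. The 3 comparisons share libraries.

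**Figure D2:**
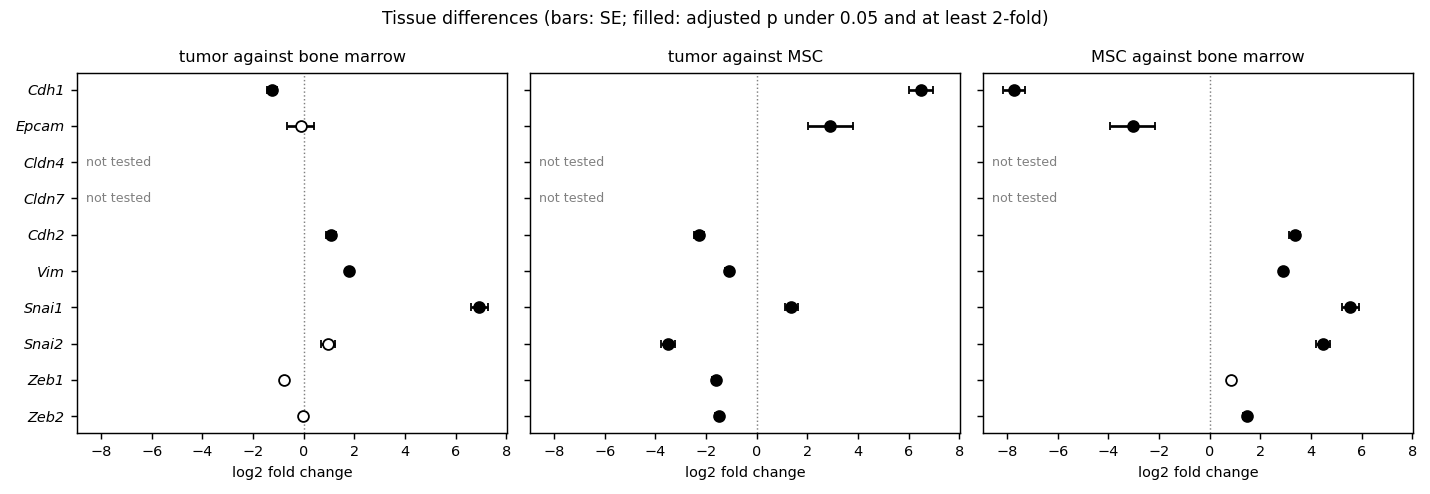
Log2 fold change between tissues for each gene, with bars of 1 SE; filled points were called and open points were not. Snai1 is higher in tumors than in either other tissue, at 6.94 against bone marrow and 1.38 against MSC, and the fitted values of Cdh1 and Epcam against MSC rest on 3 MSC counts each.

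Cdh1, which encodes E-cadherin, the core of the epithelial adherens junction, was highest in bone marrow. Its level was 11.9, 13.2 and 8.88 CPM in WT bone marrow and 11.3, 10.2 and 11.5 in K74R bone marrow. The tumors had 3.79, 4.69 and 7.52 CPM (WT) and 3.67, 4.88 and 4.12 (K74R), all below every bone marrow library. In MSC it gave 0 and 1 count (WT) and 0 and 2 counts (K74R). Tumors were lower than bone marrow by 2.36-fold (log2 fold change -1.24, SE 0.20, adjusted p = 3.87e-05). Pooled over libraries, Cdh1 was 100 times the MSC level in tumors (95% interval 34.1 to 487, counting error only) and 237 times in bone marrow (80.9 to 1150), both called (adjusted p = 4.9e-09 and 2.42e-10). Erythroid markers summed to 35770 to 46900 CPM in bone marrow, 965.7 to 1471 in tumors and 147.1 to 418.4 in MSC, the order of tissues of Cdh1. Within bone marrow the sums were 39780, 35800 and 46900 CPM (WT) and 43760, 44960 and 35770 (K74R), in the library order above. There WT library 3 had the highest erythroid sum and the lowest Cdh1. The part of erythroid cells in the Cdh1 level was not tested.

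Epcam, the epithelial adhesion molecule, was near the counting limit in every tissue. It had 13, 2 and 5 counts in WT bone marrow, 2, 9 and 6 in K74R bone marrow, 1, 12 and 9 in WT tumors, 6, 8 and 8 in K74R tumors, and 0 or 1 in each MSC library. Bone marrow and tumors overlapped and did not differ by the test (log2 fold change -0.12, SE 0.53, adjusted p = 0.84). The pooled level was 8.17 times the MSC level in tumors (95% interval 2.62 to 41.1) and 8.96 times in bone marrow (2.84 to 45.4), with adjusted p = 0.00791 and 0.00594. In the WT libraries alone neither difference passed (adjusted p = 0.12 and 0.0836), and without WT bone marrow library 1 or WT tumor library 2 Epcam did not pass the filter.

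The claudins Cldn4 and Cldn7, strands of epithelial tight junctions, gave 0 to 4 counts per library. Cldn4 had 1 count over the 6 tumors, 4 over the 4 MSC libraries and 7 over the 6 bone marrow libraries. Cldn7 had 8, 1 and 9 counts. All levels of both genes were at most 0.274 CPM. Groups with no count, taken at 3 counts over the group, allow at most 0.0968 CPM of Cldn7 in WT MSC, 0.0927 of Cldn4 in K74R MSC and 0.0538 of Cldn4 in K74R tumors. Neither gene passed the filter on low counts, so differences between tissues or genotypes were not tested in the main fits.

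Cdh2, which encodes N-cadherin, the cadherin of mesenchymal and neural cells, had the reverse order to Cdh1. It was 79.1 and 78.3 CPM in WT MSC and 97.3 and 112 in K74R MSC. Tumors had 19.2, 21.8 and 18.4 (WT) and 18.6, 16 and 18.8 (K74R). Bone marrow had 4.27, 12.7 and 11.8 (WT) and 5.5, 10.2 and 8.71 (K74R), and the 3 tissues did not overlap. Tumors were 4.82-fold below MSC (log2 fold change -2.27, SE 0.21, adjusted p = 8.98e-08) and 2.13-fold above bone marrow (1.09, SE 0.20, adjusted p = 0.000131), and MSC were 10.3-fold above bone marrow (3.36, SE 0.22, adjusted p = 1.25e-09). The tumor difference from bone marrow fell under 2-fold without WT bone marrow library 1 (0.91) or K74R bone marrow library 1 (0.98). These 2 libraries were the lowest of their groups in Cdh2 and also had the lowest stromal marker sums (430 and 634.8 CPM against 898.9 to 1150 in the other 4), and the part of stromal cells in the level was not tested.

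The balance of the cadherins was read within each library as the log2 ratio of Cdh1 to Cdh2 per kilobase, which library scaling does not touch. In bone marrow it was 2.29, 0.88 and 0.41 (WT) and 1.86, 0.82 and 1.22 (K74R), a mean of 1.25 ± 0.71 (SD, n = 6), so Cdh1 exceeded Cdh2 in each. In tumors it was -1.53, -1.40 and -0.47 (WT) and -1.53, -0.90 and -1.37 (K74R), a mean of -1.20 ± 0.42 (n = 6), so Cdh2 exceeded Cdh1 in each and the tissues did not overlap. K74R minus WT was 0.11 in bone marrow (two-sided exact permutation p = 1.0) and -0.13 in tumors (exact p = 0.8), within the spread of the libraries; 3 against 3 cannot give an exact p below 0.1.

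Vim, which encodes the intermediate filament of mesenchymal cells and of leukocytes, was the most abundant of the 10 genes in each tissue. Tumors had 1753, 1819 and 1779 CPM (WT) and 1681, 1870 and 1713 (K74R), a narrow range. Bone marrow had 657, 476 and 547 (WT) and 500, 451 and 477 (K74R). MSC had 2005 and 2844 (WT) and 7222 and 4806 (K74R), the widest spread of the 3 tissues. Tumors were 3.43-fold above bone marrow (log2 fold change 1.78, SE 0.12, adjusted p = 1.21e-09) and 2.16-fold below MSC (-1.11, SE 0.13, adjusted p = 9.81e-07). The difference from MSC was -1.78 among K74R libraries alone (adjusted p = 1.31e-05) and -0.45 among WT libraries alone (adjusted p = 0.0396), the latter under 2-fold. It was also under 2-fold without WT MSC library 2 (-0.989), without K74R MSC library 1 (-0.96) and with library size as the sole scaling (-0.89). MSC were 7.4-fold above bone marrow (2.89, SE 0.13, adjusted p = 1.44e-11).

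Snai1, the repressor Snail, had the largest fold of the 8 genes tested between tumors and bone marrow. Tumors had 96.5, 77.6 and 66.4 CPM (WT) and 95.1, 103 and 61.2 (K74R). MSC had 16.7 and 23.7 (WT) and 69.3 and 32.3 (K74R), and bone marrow had 0.401, 1.03 and 2.37 (WT) and 0.204, 0.411 and 0.488 (K74R). All tumors lay above all bone marrow libraries, with a 122-fold difference (log2 fold change 6.94, SE 0.34, adjusted p = 3.37e-11). The difference from MSC was 2.6-fold (1.38, SE 0.26, adjusted p = 0.000175), and K74R MSC library 1 overlapped the tumors. Among K74R libraries alone it did not pass (0.76, adjusted p = 0.0561). MSC were 47.2-fold above bone marrow (5.56, SE 0.35, adjusted p = 9.24e-10).

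Snai2, the repressor Slug, was instead a gene of the MSC libraries. These had 102 and 67 CPM (WT) and 99.9 and 146 (K74R). Tumors had 7.67, 5.87 and 8.08 (WT) and 8.97, 9.47 and 15.5 (K74R), and bone marrow had 1.94, 7.2 and 5.28 (WT) and 2.78, 5.21 and 5.3 (K74R). Tumors were 11.3-fold below MSC (log2 fold change -3.50, SE 0.26, adjusted p = 9.84e-09). Against bone marrow they were 1.95-fold higher (0.97, SE 0.26, adjusted p = 0.00345), just under the 2-fold limit, and the tissues overlapped. It passed the limit with library size alone (1.11), with limma-voom (1.06), among K74R libraries alone (1.34), and without WT bone marrow library 2 (1.18), K74R bone marrow library 2 or 3, WT tumor library 2, or K74R tumor library 1 or 2 (1.02 to 1.04 for these 5). Among WT libraries alone it was 0.57 and did not pass (adjusted p = 0.2). MSC were 22.1-fold above bone marrow (4.46, SE 0.28, adjusted p = 8.51e-10). The 2 SNAI genes thus had opposite orders in tumors and MSC.

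Zeb1 and Zeb2 encode the ZEB repressors, which blood cells also use, Zeb2 in myeloid cells in particular. Both were highest in MSC. Zeb1 had 73.4 and 129 CPM in WT MSC and 82.8 and 81 in K74R MSC, 48.9, 51.7 and 43 in WT bone marrow and 57.6, 48.5 and 51.6 in K74R bone marrow. Its tumor levels, 31.3, 38.6 and 34.5 (WT) and 28, 29.1 and 18.7 (K74R), lay below all other libraries. Tumors were 3.07-fold below MSC (log2 fold change -1.62, SE 0.15, adjusted p = 8.22e-08) and 1.69-fold below bone marrow (-0.76, SE 0.13, adjusted p = 8.85e-05), under the 2-fold limit. Among K74R libraries alone the latter was -1.07. MSC were 1.81-fold above bone marrow (0.86, SE 0.14, adjusted p = 6.44e-05), and past 2-fold among WT libraries alone (1.08) or without WT MSC library 1 (1.05).

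Zeb2 had 874 and 596 CPM in WT MSC and 331 and 632 in K74R MSC. Bone marrow had 177, 213 and 192 (WT) and 206, 245 and 248 (K74R), and tumors 242, 271 and 221 (WT) and 198, 181 and 164 (K74R). Tumors were 2.83-fold below MSC (log2 fold change -1.50, SE 0.15, adjusted p = 3.13e-07). MSC were 2.8-fold above bone marrow (1.49, SE 0.15, adjusted p = 2.93e-07). Tumors and bone marrow overlapped, and their difference of -0.02 (SE 0.14, adjusted p = 0.927) changed sign with library size as the sole scaling (0.13) and among WT libraries alone (0.32, adjusted p = 0.0843). The leukocyte and macrophage sums ran from 803.5 to 1195 CPM in tumors and were higher in both other tissues, and their part in the Zeb levels was not tested.

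The genotypes were compared within each tissue by the same test at an adjusted p under 0.05, with no limit on the fold. None of the 10 genes was called in any tissue. In bone marrow 6 were tested, and 0.773% of all genes were called. An unadjusted p under 0.05 was found for 1 of the 6, beside 2646 of all 14872 genes. In MSC 6 were tested, and 3.34% of all genes were called. There 2 of the 6 had an unadjusted p under 0.05, beside 3765 of all 14475 genes. In tumors 7 were tested, and 0.0406% of all genes were called. Of these 7, 3 had an unadjusted p under 0.05, beside 1661 of all 14779 genes. WT and K74R libraries did not overlap for 0 of 6, 3 of 6 and 3 of 7 of the tested genes, against 22.9%, 59.4% and 16.9% of all genes. DESeq2 called 0 of the genes in bone marrow, 2 in MSC and 1 in tumors. Over all genes it called 349 higher and 184 lower in bone marrow, 988 and 921 in MSC, and 54 and 148 in tumors.

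**Figure D3:**
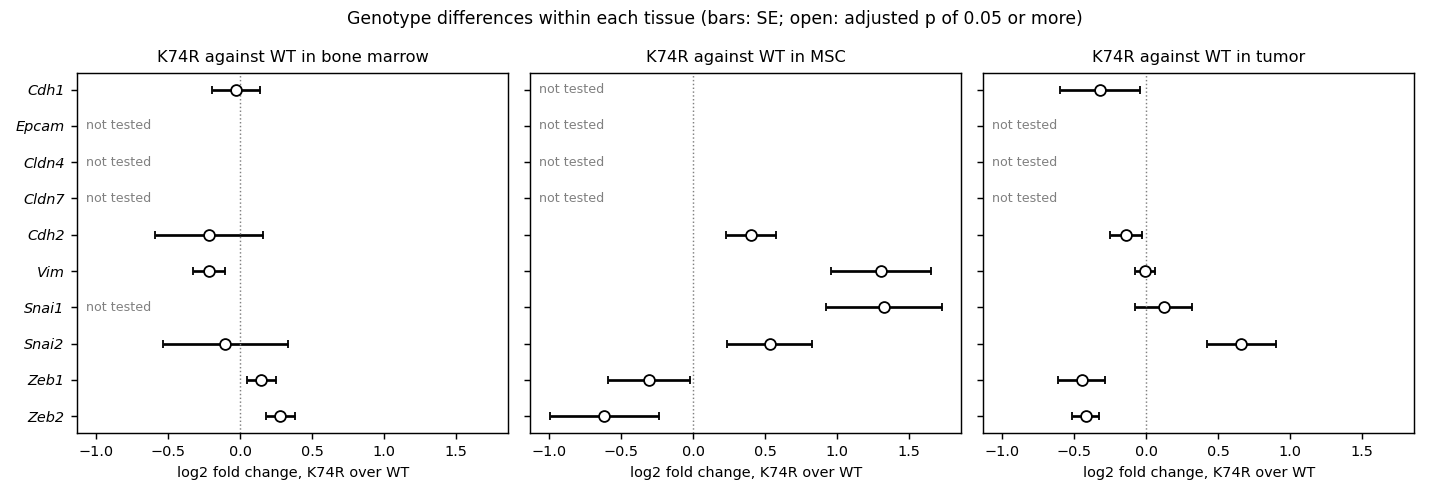
Log2 fold change of K74R over WT for each gene in each tissue, with bars of 1 SE and open points for an adjusted p of 0.05 or more. No point is filled; the largest values are those of Snai1 (1.33) and Vim (1.31) in MSC, and in tumors Zeb1 (-0.45) and Zeb2 (-0.42) lie below 0 and Snai2 (0.66) above.

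In tumors the levels given above placed Zeb1 and Zeb2 lower, and Snai2 higher, in each K74R library than in each WT library. Zeb2 averaged 245 ± 25.6 CPM in WT and 181 ± 17.1 in K74R (SD, n = 3 each), a log2 fold change of -0.42 (SE 0.09, edgeR adjusted p = 0.254). Zeb1 averaged 34.8 ± 3.7 and 25.3 ± 5.7 CPM (-0.45, SE 0.16, edgeR adjusted p = 0.38), and Snai2 7.21 ± 1.17 and 11.3 ± 3.6 CPM (0.66, SE 0.24, edgeR adjusted p = 0.379). DESeq2 gave Zeb2 an adjusted p of 0.00669, and without the filter on low counts edgeR gave 0.000103 for Zeb2, 0.00716 for Zeb1 and 0.0237 for Snai2, so these calls rest on the choice of method. Over all genes DESeq2 called 54 higher and 148 lower and the unfiltered run 293 and 517, against 0 and 6 in the main fit. Over all alternatives the adjusted p ran from 0.000103 to 0.71 for Zeb2, from 0.00716 to 0.794 for Zeb1 and from 0.0237 to 0.794 for Snai2. Vim (log2 fold change -0.01), Snai1 (0.12), Cdh2 (-0.14) and Cdh1 (-0.32) did not pass, with edgeR adjusted p of 0.637 or more.

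Some cell type marker sums were, like Zeb1 and Zeb2, lower in every K74R tumor than in every WT tumor. Leukocyte and macrophage markers summed to 1136, 1156 and 1195 CPM in WT tumors and 972.2, 1037 and 803.5 in K74R tumors, and endothelial markers to 176.1, 194.9 and 214 against 140.7, 162.1 and 140.9. Of the 11 leukocyte and macrophage genes 0 were called and 8 had an unadjusted p under 0.05, with a median log2 fold change of -0.46. Of the 11 endothelial genes 0 were called and 6 had such a p, with a median of -0.36. Among all genes tested, 1661 of 14779 had an unadjusted p under 0.05. No gene of either list was at 0 in either group. Keratinocyte markers also did not overlap, at 17.7, 20.1 and 17.1 CPM in WT and 14.6, 11.5 and 9.35 in K74R, with 0 of 4 tested called. Stromal sums were 2353, 2531 and 1924 CPM in WT and 1819, 2249 and 1046 in K74R, which overlap. Among the WT tumors, library 3 had the highest leukocyte and endothelial sums but the lowest Zeb2 (221 CPM). K74R tumor library 3 had the lowest Zeb1, Zeb2, leukocyte and stromal values and the highest Snai2. Without it the log2 fold change stayed negative for Zeb1 and Zeb2 and positive for Snai2; over all left-out libraries it ran from -0.56 to -0.28 for Zeb1, from -0.49 to -0.35 for Zeb2 and from 0.37 to 0.81 for Snai2. The part of these cell types in the Zeb1, Zeb2 and Snai2 differences was not tested.

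**Figure D4:**
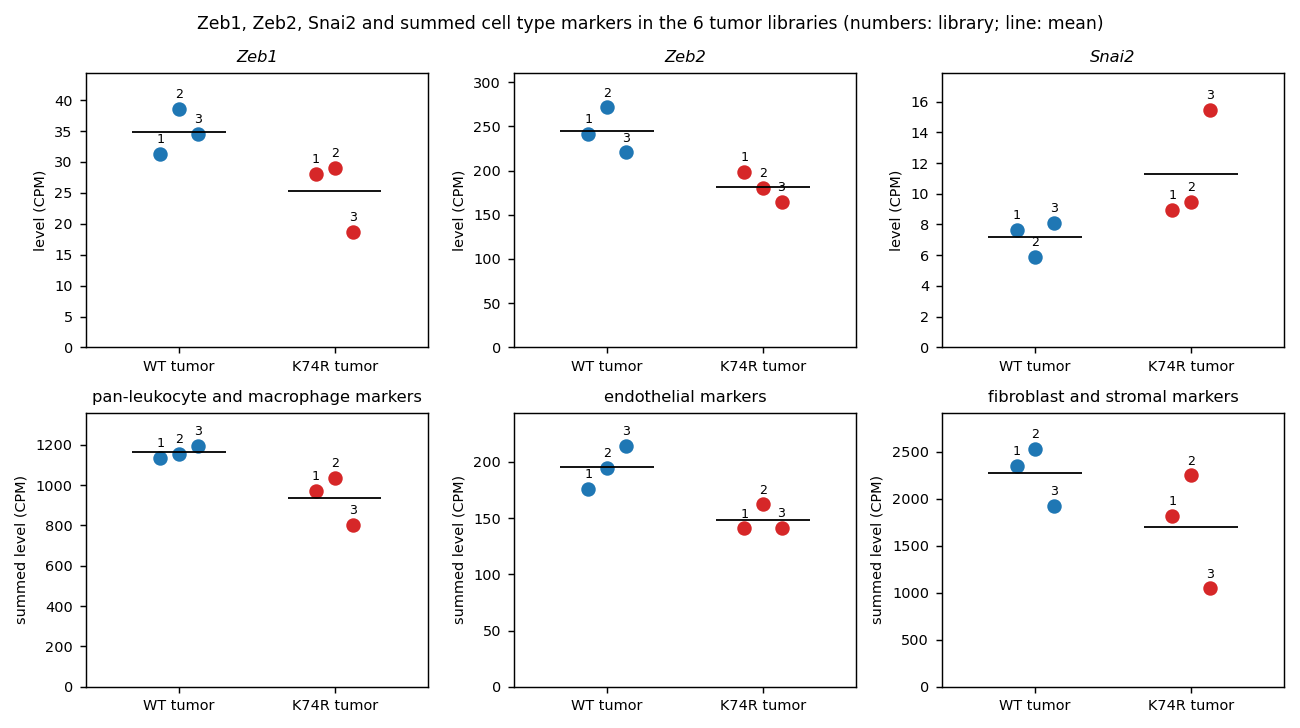
Levels of Zeb1, Zeb2 and Snai2 (top, CPM) and summed levels of 3 cell type marker lists (bottom, CPM) in the 3 WT and 3 K74R tumors; numbers mark the library and lines the group mean. Zeb1, Zeb2, the leukocyte and macrophage sum and the endothelial sum are lower in every K74R tumor than in every WT tumor, Snai2 is higher in every K74R tumor, and the stromal sums overlap.

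In MSC, Vim and Snai1 had the largest differences. Vim averaged 2424 CPM in WT and 6014 in K74R (log2 fold change 1.31, SE 0.35, edgeR adjusted p = 0.0958), and Snai1 20.2 and 50.8 CPM (1.33, SE 0.40, edgeR adjusted p = 0.118). Cdh2 was also higher in both K74R libraries (0.40, SE 0.17, edgeR adjusted p = 0.213). Snai2 (0.53), Zeb1 (-0.31) and Zeb2 (-0.62) overlapped between genotypes. DESeq2 called Vim (adjusted p = 0.00118) and Snai1 (0.0213). So did edgeR without the low-count filter (8.24e-05 and 1.07e-05) and with the spread shared over all 16 libraries (0.000301 and 0.0221). These runs called more genes of every kind than the main fit, which gave 297 higher and 187 lower. DESeq2 gave 988 and 921, the unfiltered run 1519 and 1544, and the shared spread 2405 and 2026. Over all alternatives the adjusted p ran from 8.24e-05 to 0.329 for Vim and from 1.07e-05 to 0.413 for Snai1. Without K74R MSC library 2 Snai1 was called (adjusted p = 0.0496), and without K74R MSC library 1 its log2 fold change was 0.68 and 0 genes of the whole table were called, down from 484. Beside these values, 6 of 10 endothelial markers tested fell in K74R MSC (Cdh5, Pecam1, Tek, Tie1, Emcn and Plvap, with a list median of -6.12). Of 11 leukocyte and macrophage markers tested, 1 fell (C1qa), 7 had an unadjusted p under 0.05, and the median was -1.11. Of 5 simple and intestinal epithelium markers tested, 1 rose (Krt7, a keratin of simple epithelium, 3.62, SE 0.44, edgeR adjusted p = 0.027). That list summed to 4.18 and 11.6 CPM in WT and 98.6 and 26.1 in K74R MSC. In K74R MSC 12 of its 15 markers were under 1 CPM on average, and Epcam, Cldn4 and Cldn7 gave 0 or 1 count per library. Of 13 stromal markers tested, 2 rose (Fbln1, 2.06, edgeR adjusted p = 0.0308, and Col6a1, 1.56, edgeR adjusted p = 0.0441). An unadjusted p under 0.05 was found for 8 of the 13, beside 3765 of all 14475 genes, and the median was 0.52. The list nevertheless summed to 6701 and 10580 CPM in the WT and to 4872 and 6086 in the K74R libraries. The part of these markers in Vim and Snai1 was not tested.

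In bone marrow the largest differences were those of Zeb2 (194 ± 18.1 CPM in WT, 233 ± 23.1 in K74R, n = 3 each; log2 fold change 0.28, SE 0.10, edgeR adjusted p = 0.199) and Vim (-0.22, SE 0.11, edgeR adjusted p = 0.34), and the genotypes overlapped for both. Cdh1 (-0.03), Cdh2 (-0.22), Snai2 (-0.11) and Zeb1 (0.15) did not pass, with edgeR adjusted p of 0.469 or more. Snai1 was not tested there: the WT libraries gave 6, 16 and 31 counts and the K74R libraries 3, 6 and 7.

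Whether the genotype difference itself differed between tissues was tested in the model of all libraries. In that model 1 spread is shared by all tissues, although replicate libraries differed more in MSC. Between 2 libraries of a group, the chi-square of the counts per gene was 51.4 and 58.7 in MSC and 6.86 to 19.6 elsewhere. The fit of MSC alone called neither Vim nor Snai1 (edgeR adjusted p = 0.0958 and 0.118). For tumor against bone marrow 0 of the 8 genes passed, beside 0.0385% of all genes. An unadjusted p under 0.05 was found for 3 of them, beside 2087 of all 18191 genes. Zeb2 had the smallest p of the 8 (difference -0.70, SE 0.28, adjusted p = 0.374). For tumor against MSC Vim passed (-1.33, SE 0.25, adjusted p = 0.00366), beside 10.6% of all genes. For MSC against bone marrow Vim (1.55, SE 0.26, adjusted p = 0.000877) and Snai1 (3.06, SE 0.84, adjusted p = 0.0193) passed, beside 18.8% of all genes. The Snai1 call was lost without WT bone marrow library 3 (adjusted p = 0.0997), K74R bone marrow library 1 (0.0511) or K74R MSC library 1 (0.0666), and with a replicate block (2.79, adjusted p = 0.0687). Cdh2 passed without WT bone marrow library 1 (0.99, adjusted p = 0.0235). Zeb2 missed the limit there (-0.87, adjusted p = 0.0621) but passed with DESeq2 (-0.90, adjusted p = 0.0289) and without WT MSC library 2 (0.0285) or K74R MSC library 2 (0.00127), and Zeb1 passed without WT MSC library 1 (-0.79, adjusted p = 0.0491). Without K74R MSC library 2 Snai1 also passed in tumor against MSC (-1.68, adjusted p = 0.0218). All of these rest on 2 MSC libraries per genotype, whose endothelial and macrophage sums differ as given above. The Snai1 value for MSC minus bone marrow also rests on the few bone marrow counts given above, since its log2 fold change within MSC was 1.33.

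The genes around the junctions and the EMT factors were counted from lists, to be read beside the shares of all genes called: 25.3% higher and 28.3% lower in tumors against bone marrow, 22.5% and 22.2% in tumors against MSC, and 24.7% and 26.8% in MSC against bone marrow. Of 12 tested adherens junction partners, 6 were higher and 2 lower in tumors than in bone marrow, with a median log2 fold change of 1.04 against 0.02 for all genes. Afdn, which encodes afadin, the actin linker of nectins, was at 211 ± 7.3 CPM in tumors (n = 6), 119 ± 21.7 in MSC (n = 4) and 15 ± 1.1 in bone marrow (n = 6), and Nectin3 at 54.4, 50.2 and 1.55. Lower in tumors were Vcl, which encodes vinculin (75.1 CPM against 233 in bone marrow), and Cdh11, the cadherin of mesenchymal cells (1.78 against 21.8). Against MSC, 0 partners were higher and 7 lower in tumors (median -1.07), Cdh11 being at 379 CPM in MSC. In MSC against bone marrow 9 were higher and 0 lower (median 2.22), including Ctnnd1, which encodes p120 catenin (140 against 11.9 CPM).

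Tight junction genes were called in both directions. Their summed level was 498 to 566.5 CPM in tumors, 313.5 to 748.3 in MSC and 118.5 to 152.9 in bone marrow. WT MSC library 2, at 748.3, lay above every tumor. Of 15 tested, 7 were higher and 6 lower in tumors than in bone marrow (median 0.21), 7 higher and 4 lower than in MSC (median 0.67), and 5 higher and 6 lower in MSC than in bone marrow (median 0.06). The polarity gene Pard3 was at 122 ± 5.2 CPM in tumors, 53.2 ± 12.7 in MSC and 1.49 ± 0.09 in bone marrow, and Cldn12 at 146, 45.7 and 5.34, so some genes of the list were well above Cldn4 and Cldn7 in tumors. Pard6b, another polarity gene, was at 7.12 CPM in tumors and at 0 counts in all 4 MSC libraries. Lower in tumors than in bone marrow were Cldn15 (0.526 against 27.8 CPM) and Tjp3 (0.451 against 7.18), and Cldn1 was at 29.7 CPM in bone marrow, 1.25 in MSC and 6.34 in tumors.

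Of 11 tested regulators and partners of the epithelial program, 4 were higher and 4 lower in tumors than in bone marrow (median -0.37), 5 higher and 4 lower than in MSC (median 1.26), and 2 higher and 4 lower in MSC than in bone marrow (median -1.41, or -0.91 with the 2 genes at 0 in MSC set to what 3 counts allow). Ovol2, a repressor known to oppose EMT factors, was at 6.22 ± 0.91 CPM in tumors and at 0 counts in all bone marrow and MSC libraries. Elf3, an epithelial ETS factor, was at 2.41 ± 0.73 CPM in tumors, 0.0223 in bone marrow and 0 in MSC. Cd24a, which marks epithelial and also blood cells, was at 3240 ± 276 CPM in bone marrow, 9.93 in MSC and 2.58 in tumors.

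The other EMT transcription factors were mostly higher in both tumors and MSC than in bone marrow. Of 12 tested, 8 were higher and 0 lower in tumors than in bone marrow (median 4.78), 9 higher and 1 lower in MSC than in bone marrow (median 5.89), and 2 higher and 4 lower in tumors than in MSC (median -0.08). Sox9 was at 106 ± 12.1 CPM in tumors, 39.4 ± 15.5 in MSC and 0.0714 in bone marrow, and Twist1, a bHLH factor of mesoderm and neural crest, at 23.3, 24.3 and 0.35. Twist2 was at 8.46 CPM in tumors, 2.34 in MSC and 0 counts in bone marrow. Prrx1, a homeobox factor of limb and stromal mesenchyme, was at 376 CPM in MSC, 23.8 in tumors and 4.76 in bone marrow.

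Mesenchymal effector genes, the matrix, contractile and adhesion genes that EMT cells are known to switch on, were all 17 higher in MSC than in bone marrow (median 5.03). In tumors 10 of the 17 were higher and 2 lower than in bone marrow (median 1.39), and 0 were higher and 13 lower than in MSC (median -3.53). Acta2, smooth muscle actin, was at 2250 ± 530 CPM in MSC, 7.98 ± 0.91 in tumors and 5.98 ± 1.09 in bone marrow. Mmp2, a matrix protease, was at 397, 196 and 2.6 CPM in the same order, and Lgals1, galectin 1, at 1140, 937 and 103. High Vim and Snai1 in tumors stood beside low Acta2 and Tagln (0.244 CPM), and also beside higher Mmp2 and Lgals1 than in bone marrow. The list summed to 5468 to 8522 CPM in tumors, 2137 to 2474 in bone marrow and 38720 to 44190 in MSC. Of 16 TGF-beta ligands, receptors and SMADs, the pathway known to induce SNAI and ZEB genes, 8 were higher and 2 lower in tumors than in bone marrow (median 1.15), 0 higher and 7 lower than in MSC (median -0.83), and 12 higher and 0 lower in MSC than in bone marrow (median 2.23). Smad6, an inhibitory SMAD, was at 62.8 CPM in MSC, 2.03 in tumors and 0.629 in bone marrow.

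**Figure D5:**
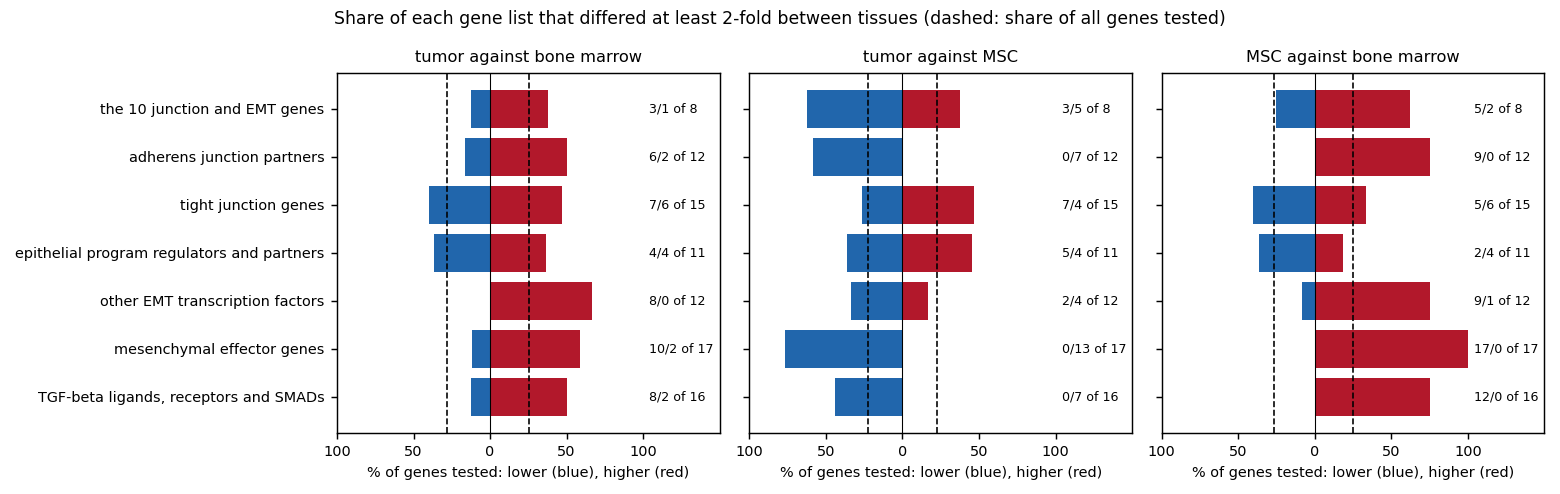
Percent of the tested genes of each list called higher (red, to the right) or lower (blue, to the left) in each pair of tissues, with counts written as higher/lower of tested and dashed lines at the percent of all genes. All 17 mesenchymal effector genes are higher in MSC than in bone marrow, and 0 of them are higher in tumors than in MSC.

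By genotype, 0 genes of the 6 pathway lists were called in bone marrow or tumors. In MSC, where 3.34% of all genes were called, 1 of 6 tested genes rose in K74R in the epithelial program list (Cd24a, log2 fold change 3.16, adjusted p = 0.0375), 1 of 17 in the mesenchymal effector list (S100a4, 2.86, adjusted p = 0.0495) and 1 of 16 in the TGF-beta list (Smad6, 1.46, adjusted p = 0.027). None fell, and the other 3 lists had 0 called of 12, 10 and 12; these counts are too small to set a list apart from the share of all genes. The list medians in MSC ran from -0.34 (tight junction genes) to 0.44 (other EMT factors), against 0.001 for all genes.

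The genes with the most similar levels over the 16 libraries were found by Pearson correlation of log2 CPM among 13148 named genes, as a description. The libraries fall into 3 tissues, which sets most of these values. Of the 23 genes named here, 0 were also named by Spearman correlation. Vim was most like Itga5, the integrin alpha 5 chain of the fibronectin receptor (0.996), Hdlbp (0.994) and Lman1 (0.989). Snai1 was most like Nckap1 (0.992), Foxf2 (0.99) and Cacng7 (0.989). Snai2 was most like Dusp27 (0.977), Gpc6 (0.977) and Dlc1 (0.976), and Dlc1 was also the gene most like Cdh2 (0.986), followed by Enah (0.983) and Celf5 (0.983). Cdh1 was most like P2ry10 (0.989), Rsad2 (0.987) and Pls1 (0.987). Zeb1 was most like Pi4ka (0.965), Grk5 (0.963) and Stim2 (0.963), and Zeb2 most like P2rx7 (0.976), Slc38a6 (0.974) and Fgd6 (0.974). Epcam, with its few counts, reached 0.826 (Timm21), 0.805 (Bap1) and 0.795 (Acp6).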

How the data were processed

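RNA-seq was analysed in 16 mouse libraries. The authors deposited raw counts per Ensembl gene, 1 column per library. Per the labels' protocols, TRIzol was used for RNA and the KAPA mRNA HyperPrep kit for sequencing libraries. The submitters' processing notes name FastQC, MultiQC, Trimmomatic 0.38, HISAT2 2.1.0, featureCounts 1.6.0 and build GRCm38; which annotation release, strand setting and multi-mapping rule were used was not given in the sources used here. All 55536 identifiers matched GENCODE M21, which gave symbols, positions and merged exon lengths. Columns were matched to samples by name; in the column names the WT tumors carry an added R and the MSC columns carry KCF for WT and KLF for K74R, with no meaning given.

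The deposited counts were tested with edgeR 4.0.16 (R 4.3.3) by its quasi-likelihood test (filterByExpr, TMM scaling, Benjamini-Hochberg adjustment over all genes). Genotypes were compared in fits of 1 tissue and called at an adjusted p under 0.05. Tissues and differences of genotype effects were tested in a fit of 16 libraries, and tissues also needed a 2-fold difference. The SE is the log2 fold change divided by the root of the F statistic. The cadherin ratio used an exact permutation test (scipy 1.17.1), and pooled ratios a 95% exact binomial interval, which covers counting error only. Depth was 14067259 to 18923751 counts per library. Replicate libraries differed by more than sampling noise, and whether replicate numbers pair libraries could not be settled.

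All 10 genes are named. From each list, up to 2 genes per direction and comparison with the smallest p among those called are named; the marker genes named singly were picked after their values were seen. The genes and lists were chosen with earlier results of these data known. Lists matched in full except the mesenchymal (17 of 18) and keratinocyte (14 of 15) lists; keratinocyte markers summed to 7.89 to 20.1 CPM in all libraries. Scripts were checked on simulated counts. Alternatives were relative log expression factors, library size alone, no filter or a 1 CPM filter, DESeq2 1.42.0, limma-voom 3.58.1, a fit of 16 libraries, WT or K74R libraries alone, removal of hemoglobin and mitochondrial genes, a replicate block, left-out libraries and Spearman correlation.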

Additional observations from a re-analysis of the deposited data

Results flagged for a closer look

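Vim passed edgeR's test of the difference of genotype effects between MSC and each other tissue, with p adjusted over all genes. On the log2 scale the difference was -1.334 for tumor minus MSC (SE 0.25, adjusted p = 0.00366). For MSC minus bone marrow it was 1.546 (SE 0.26, adjusted p = 0.000877). Of all genes, 10.6% and 18.8% passed these tests, which share 1 spread over all 16 libraries. In the fit of MSC alone Vim was not called (edgeR adjusted p = 0.0958). Both K74R MSC libraries lay above both WT MSC libraries, and 59.4% of all genes tested there did not overlap by genotype in either direction. For Snai1 the difference was 3.056 for MSC minus bone marrow (SE 0.84, adjusted p = 0.0193). This call was lost when any of 3 single libraries was left out, and with a replicate block (2.793, adjusted p = 0.0687). Within MSC the log2 fold change of Snai1 was 1.33 and was not called (edgeR adjusted p = 0.118). The value also rests on few bone marrow counts, 6, 16 and 31 in WT and 3, 6 and 7 in K74R, where Snai1 was not tested. The MSC genotypes also differ in endothelial and macrophage markers, whose part was not tested.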

How the results depend on the processing

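No left-out library or alternative run changed the direction of a tissue difference that was called. With the numbers of genes called, the count in MSC by genotype was 2 higher in place of 0 with no filter on low counts, with DESeq2 and with all 16 libraries in 1 model, and 0 to 1 over left-out libraries. In tumors the genotype count was 1 higher and 2 lower with no filter, and 1 lower with DESeq2. Tumor against bone marrow gave 2 lower in place of 1 among K74R libraries only, and tumor against MSC 1 higher in place of 3. MSC against bone marrow gave 1 lower in place of 2 among WT libraries only and K74R libraries only, and 1 to 2 over left-out libraries, since Epcam was not tested without WT bone marrow library 1 or WT tumor library 2. For differences of genotype effects, left-out libraries gave 1 to 2 lower for tumor minus MSC, and 1 to 3 higher (3 without WT bone marrow library 1, which added Cdh2) and 0 to 1 lower for MSC minus bone marrow, where DESeq2 gave 1 lower. Whether replicate numbers pair libraries could not be settled. The correlations of same-numbered deviations were 0.254, 0.112 and -0.09 in bone marrow, -0.179 in MSC and 0.026, -0.031 and 0.077 in tumors. The 0.254 was the highest of any bone marrow pair. With 2 MSC libraries per genotype the deviations of a group mirror each other, so all MSC pairs share 1 size of correlation. Not every bone marrow or tumor library correlated best with its own number. A replicate block left the count for MSC minus bone marrow at 1 higher in place of 2 (Snai1 2.793, adjusted p = 0.0687), and moved no other count of these genes. Over all genes it gave 88 higher and 47 lower by genotype in bone marrow, 565 and 570 in MSC, and 1 and 12 in tumors. Crossing the 2 MSC pairs, chosen after seeing the data, called 2 of these genes higher, 0 lower, and 996 higher and 947 lower in the whole table. Library size alone moved the median of all genes from 0.016 to 0.167 for tumor against bone marrow, from 0.063 to 0.278 for tumor against MSC and from -0.071 to -0.138 for MSC against bone marrow. Values that changed sign were all uncalled, and the cause was not tested. They were Snai2 by genotype in bone marrow with limma-voom (0.033), and in tumor against bone marrow Epcam with library size alone (0.028) and Zeb2 with library size alone (0.133), with no filter (0.022) and in WT libraries only (0.322). Over left-out libraries the genotype values crossed 0 in bone marrow for Cdh1 (-0.182 to 0.09), Cdh2 (-0.577 to 0.039) and Snai2 (-0.49 to 0.318), in MSC for Zeb1 (-0.652 to 0.14), and in tumors for Cdh1 (-0.517 to 0.011), Vim (-0.061 to 0.024) and Snai1 (-0.026 to 0.316). So did tumor against bone marrow for Zeb2 (-0.058 to 0.021) and Epcam (-0.353 to 0.139), the differences of effects for Zeb1 (-0.628 to 0.179) and Zeb2 (-0.231 to 0.708) in tumor minus MSC and for Zeb1 in MSC minus bone marrow (-0.791 to 0.017), and the cadherin ratio by genotype (-0.285 to 0.657 in bone marrow, -0.326 to 0.2 in tumors). Of the 23 genes named as most alike (Dlc1 for 2 of the 8 genes), 0 were also named by Spearman correlation. All-gene counts by genotype moved by over 1.5 times: from 76 higher and 39 lower in bone marrow to 554 and 321 with no filter and 349 and 184 with DESeq2, from 297 and 187 in MSC to 1519 and 1544, and 988 and 921, and from 0 and 6 in tumors to 293 and 517, and 54 and 148. Depth limits Cldn4, Cldn7 and Epcam in every tissue, Cdh1 in MSC and Snai1 in bone marrow.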
